A study of Mus musculus with 123 samples.

Results

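Arntl, Clock and Npas2 encode the transcriptional activators of the circadian clock, and they were followed here across diet, photoperiod and time of day in mouse liver. They were taken as the rows of the expression table that carry these 3 symbols, and all 3 were found among 15398 genes and passed the filter on low values. Poly-A RNA of mouse liver was sequenced in 36 groups of 3 or 4 libraries. The groups cross a high fat diet (HFD, 61 libraries) and a low fat diet (LFD, 62 libraries) with Long light, Short light and Equal light and with 6 zeitgeber times (ZT0, 4, 8, 12, 16 and 20). A diet and a photoperiod together are called an arm, and each of the 6 arms held 20 or 21 libraries. The labels give neither the composition of the diets, nor the hours of light, nor the strain, age or sex of the mice, nor the event that sets ZT0. They name no animals, so replicates are known as separate samples by label alone, and the p-values reflect the scatter among these libraries, which may be technical.

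The protein made from Arntl, also called BMAL1, pairs with CLOCK or with its close relative NPAS2, and the pair binds E-box elements and switches on genes that include the Per and Cry repressors, whose products then block the pair. A second loop acts on the activators themselves, since the receptors REV-ERBα and REV-ERBβ (Nr1d1 and Nr1d2) repress, and the ROR receptors activate, genes with a RORE element, of which Arntl is the best known. In liver this clock times much of metabolism and is itself set by light through the brain and by the hours of feeding.

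Values are log2 CPM, that is, read counts scaled to library depth on a log2 scale, as deposited. Arntl (ENSMUSG00000055116) lies on chromosome 7 of build GRCm38, bases 113207465 to 113314126 on the plus strand. Clock (ENSMUSG00000029238) lies on chromosome 5, bases 76209868 to 76304792 on the minus strand. Npas2 (ENSMUSG00000026077) lies on chromosome 1, bases 39193731 to 39363236 on the plus strand. The antisense gene Gm45355 overlaps Arntl, and the processed pseudogenes Gm20428 and Gm3617 lie within Npas2. The pseudogene Ube2n-ps1 and the gene model Gm43658 overlap Clock. The library kit marks strand, but whether strand was used in counting is not stated in these sources, so that reads of such overlaps may be included.

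The sequence before the first listed start of each gene is shown so that the RORE, E-box and D-box letters can be looked for. The sequences are those of RefSeq on GRCm38.p6, 5′ to 3′ on the strand of the gene, for chr7:113207215-113207464 (plus), chr5:76304793-76305042 (minus) and chr1:39194022-39194211 (plus, ending where an annotated exon begins). Gene spans above are those of GENCODE and starts are those of RefSeq, and the RefSeq start of Npas2, and the sequence before it, lie inside the GENCODE span. The last lines show 30 bases around each match to AGGTCA, the core of the RORE, with the match in capitals, at chr7:113207530-113207559 (plus) and chr5:76303604-76303633 (minus).
Arntl upstream: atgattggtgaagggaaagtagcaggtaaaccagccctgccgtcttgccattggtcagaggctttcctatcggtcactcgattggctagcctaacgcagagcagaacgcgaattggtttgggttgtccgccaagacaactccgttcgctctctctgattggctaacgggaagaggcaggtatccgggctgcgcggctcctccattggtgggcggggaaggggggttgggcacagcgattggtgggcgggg
Clock upstream: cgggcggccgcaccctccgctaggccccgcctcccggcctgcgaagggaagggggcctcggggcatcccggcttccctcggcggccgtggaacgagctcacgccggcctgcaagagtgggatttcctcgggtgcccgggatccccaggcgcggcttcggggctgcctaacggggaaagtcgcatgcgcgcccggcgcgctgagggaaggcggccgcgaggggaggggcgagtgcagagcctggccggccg
Npas2 before its RefSeq start: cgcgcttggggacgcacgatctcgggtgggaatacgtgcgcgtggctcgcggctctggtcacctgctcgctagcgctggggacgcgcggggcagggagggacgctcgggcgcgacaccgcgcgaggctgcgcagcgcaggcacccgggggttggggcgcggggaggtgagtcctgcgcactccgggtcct
Arntl AGGTCA match: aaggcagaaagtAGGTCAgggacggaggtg
Clock AGGTCA match: agctttggcctcTGACCTgacagatgacag

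The search covered both strands of the windows that run 250 bases before to 50 bases after each listed start. AGGTCA was found downstream of the second listed start of Arntl, where it begins at base 32, counting the start base as 1, and there it extends to TAGGTCA. It was found on the opposite strand upstream of the third listed start of Clock, and in no window of Npas2. AGGTCA occurs in 16.3% and TAGGTCA in 2.61% of all 32851 windows in the table. The E-box CACGTG (7.15% of windows), its variant CACGTT (4.68%) and the D-box TTATGTAA (0.938%) were in no window of the 3 genes. A match is a description of letters and not of a bound site, and a missing match says only that the letters are not in these windows.

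Recovered depth lay between 13.97 M and 39.09 M reads, and the median library held 24.06 M. The 6 hepatocyte markers averaged 12.03 to 12.84 log2 CPM across the libraries. In 19 libraries the mean of the 11 pancreas acinar markers in the table or of the 12 skeletal muscle markers exceeded a log2 CPM of 4, against medians of -2.26 in HFD and -0.90 in LFD for pancreas and -0.24 in HFD and -0.92 in LFD for muscle. In bulk tissue, fewer cells of a type and less RNA per cell cannot be told apart. In 6 libraries the 16 clock target genes described below, which are not members, stood on average more than 1.5 log2 from the median of the other libraries of their group, where the median library stood 0.474 away and the highest 2.30. They are HFD Equal ZT12 replicate 1, HFD Equal ZT16 replicate 2, LFD Long ZT8 replicate 1, LFD Long ZT16 replicate 2, LFD Short ZT0 replicate 3 and LFD Equal ZT12 replicate 4. Only LFD Short ZT0 replicate 3 was also among the 19. Calls that were gained or lost without the 6 libraries, or without 1 of them, are given both ways. Group means, troughs, tops and other estimates include the 6 libraries unless stated.

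**Figure D1:**
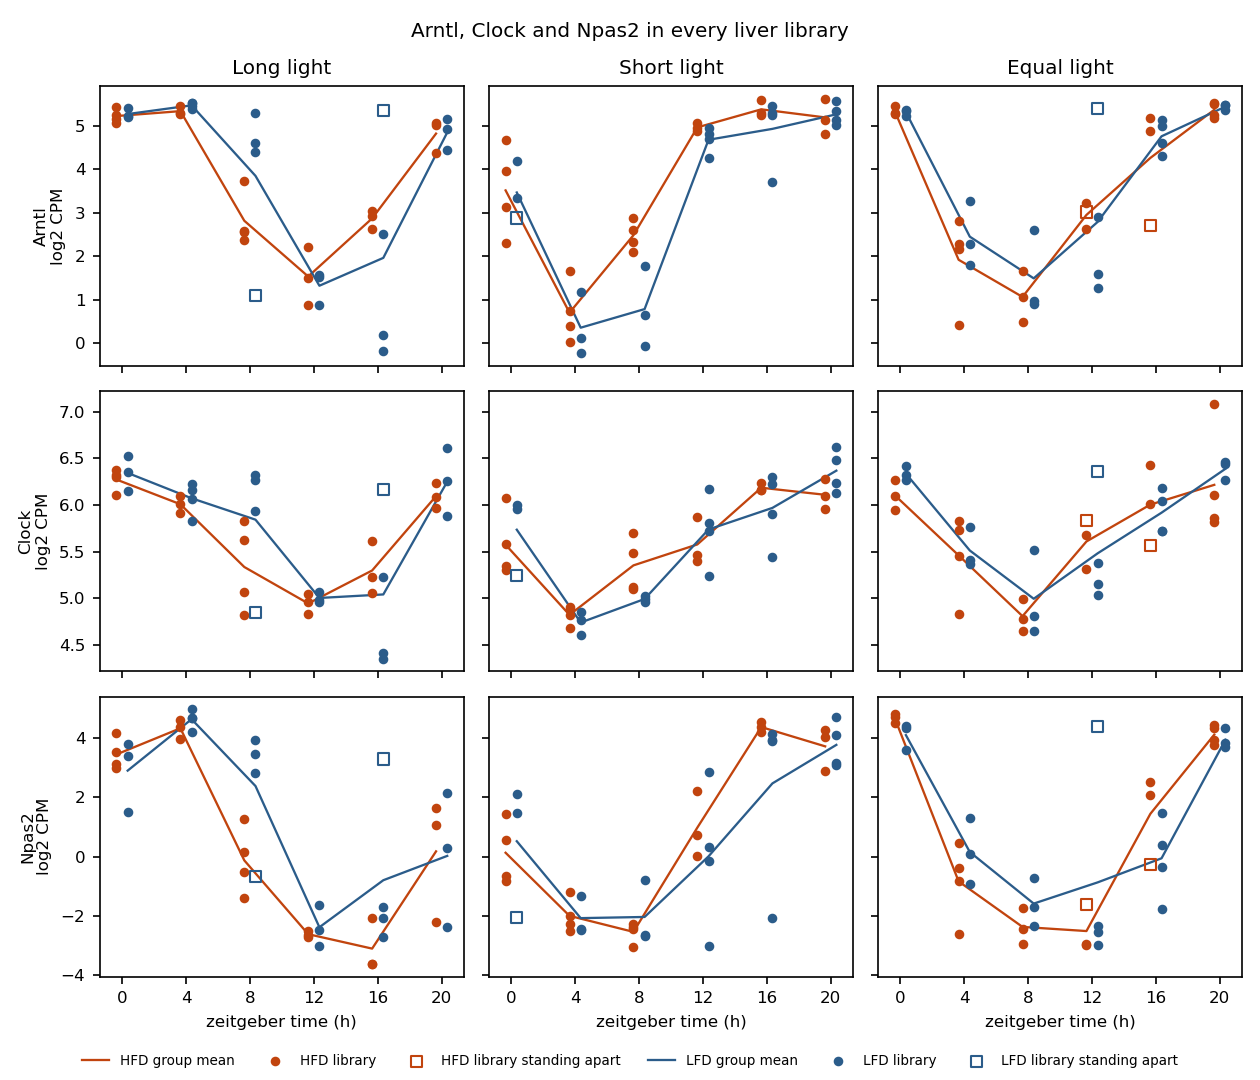
Level of Arntl, Clock and Npas2 (log2 CPM, vertical axis, 1 row per gene) by zeitgeber time (h, horizontal axis) under Long, Short and Equal light. Points are libraries (HFD left of LFD), lines join group means, and open squares are the 6 libraries whose clock targets stand apart, such as LFD Long ZT16 replicate 2 with 5.36 log2 CPM of Arntl where the others of its group range from -0.18 to 2.51.

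Arntl, whose protein pairs with CLOCK or NPAS2, was highest at ZT4 in Long light, at ZT16 or ZT20 in Short light and at ZT20 in Equal light, by group means. Under Long light it had 5.27, 5.29 and 5.45 log2 CPM at ZT4 on HFD and 5.39, 5.52, 5.52 and 5.47 at ZT4 on LFD. At ZT12 under Long light it had 2.22, 0.87 and 1.51 on HFD and 1.56, 1.53 and 0.89 on LFD. No library of either diet overlapped between these times, which were picked as top and trough from the same values, so this is a description only.

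Under Short light Arntl was lowest at ZT4, with 1.65, 0.03, 0.40 and 0.73 log2 CPM on HFD and 0.13, -0.23 and 1.18 on LFD. It was highest at ZT16 on HFD, with 5.24, 5.31 and 5.60, and at ZT20 on LFD, with 5.13, 5.03, 5.56 and 5.34. The time that held the top under Long light was thus the time that held the trough under Short light. Under Equal light the trough was at ZT8, with 0.48, 1.66 and 1.06 on HFD and 0.89, 0.98 and 2.61 on LFD, and the top at ZT20, with 5.51, 5.54, 5.25 and 5.19 on HFD and 5.48, 5.48 and 5.37 on LFD. From trough to top, group means of Arntl differed by 3.80 to 4.91 log2 over the 6 arms.

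Clock, which encodes the usual partner of ARNTL, had the highest mean level per length and the lowest amplitude of the 3. Under Long light it had 6.30, 6.37, 6.32 and 6.11 log2 CPM at ZT0 on HFD and 6.15, 6.53 and 6.35 on LFD, and at ZT12 it had 4.83, 5.04 and 4.96 on HFD and 4.98, 5.07 and 4.96 on LFD. Under Short light its trough at ZT4 had 4.90, 4.89, 4.82 and 4.68 on HFD and 4.77, 4.60 and 4.85 on LFD. Its trough groups were tight in both photoperiods and did not overlap with the top groups. Both were picked from these same values, so the separation is a description only. Trough and top of Clock lay 1.33 to 1.63 log2 apart, 2.51-fold to 3.09-fold. At 4 or 5 of the 6 times its group mean was within 1 log2 of the top, against 2 or 3 times for Arntl and 1 or 2 times for Npas2.

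Npas2, the alternative partner of ARNTL, swung most. Under Long light it had 3.97, 4.37 and 4.61 log2 CPM at ZT4 on HFD and 4.67, 4.66, 4.20 and 4.95 on LFD. At ZT12 it had -2.64, -2.69 and -2.50 on HFD and -3.02, -1.64 and -2.48 on LFD. At ZT16 on HFD it had -3.61, -2.06 and -3.61, and the lowest value stands for 0 reads. The gene was thus near the detection floor for part of each day. In all, 2 libraries held 0 reads and 45 held fewer than 10 reads of Npas2, against at least 21 reads of Arntl and 442 reads of Clock in any library.

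Under Short light Npas2 had 4.35, 4.20 and 4.53 log2 CPM at ZT16 on HFD and 4.12, 3.91, 3.88 and -2.06 on LFD, where replicate 4 stood far below the other libraries. At ZT4 it had -2.49, -1.19, -2.28 and -2.01 on HFD and -1.32, -2.42 and -2.47 on LFD. Under Equal light it was highest at ZT0, with 4.49, 4.78 and 4.71 on HFD and 4.31, 4.38 and 3.58 on LFD. Trough and top group means of Npas2 lay 5.67 to 7.41 log2 apart, and because the prior count lifts values near 0 reads, this scale understates the fold change of its troughs.

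Per kilobase of exon, Clock averaged 4.04 CPM per kb, Arntl 2.85 and Npas2 1.39 over the 36 groups. Clock stood above Arntl in 31 of 36 groups, and the 5 exceptions were groups with Arntl within 1 log2 of its top. Npas2 stood above Clock in 2 groups, with 5.29 CPM per kb against 5.03 at HFD Equal ZT0 and with 5.21 against 4.92 at LFD Long ZT4, and above Arntl in none. The lowest group mean was 0.011 CPM per kb for Npas2, 0.176 for Arntl and 1.95 for Clock. These orders compare means of 3 or 4 libraries with no test, and in the 2 groups where Npas2 stood above Clock the ratio was 1.05 and 1.06.

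Replicates scattered most for Npas2. The pooled SD within groups was 1.49 log2 for Npas2, 0.88 for Arntl and 0.36 for Clock, and without the 6 libraries it was 1.14, 0.59 and 0.28. The highest group SD was 3.51 for Npas2 at LFD Equal ZT12, and 2.56 for Arntl and 0.85 for Clock at LFD Long ZT16, and both groups hold a library that stands apart. At LFD Equal ZT12, replicate 4 had 5.40 log2 CPM of Arntl where the others had 1.59, 1.27 and 2.91, and 4.39 of Npas2 where the others had -2.34, -2.54 and -2.97. At LFD Long ZT8, replicate 1 had 1.1 of Arntl where the others had 4.40, 5.30 and 4.60. In each of these libraries the 3 members deviated in the same direction.

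A cosine and a sine of 24 h were fitted to each arm with limma across all genes. Arntl, Clock and Npas2 were each called rhythmic in all 6 arms (Benjamini-Hochberg adjusted p under 0.05), with adjusted p from 2.46e-10 to 1.84e-06 for Arntl, 1.58e-06 to 0.000102 for Clock and 1.49e-09 to 8.07e-06 for Npas2. The share of all genes called was 21.8% on HFD and 23.6% on LFD in Long light, 14.1% on HFD and 27.1% on LFD in Short light, and 16.5% on HFD and 20.9% on LFD in Equal light, and 592 of 14397 (4.11%) were rhythmic in every arm. Among those 592, Npas2 had the highest mean amplitude, 3.43 log2 from mean to peak, Arntl ranked 7 with 2.23 and Clock ranked 175 with 0.67, where the median gene had 0.456. The rank is a description, since a gene enters the 592 only by being rhythmic.

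The fitted peak of Arntl fell at 0.25 h (SE 0.58) on HFD and 1.38 h (SE 0.49) on LFD in Long light, at 16.7 h (SE 0.47) on HFD and 17.3 h (SE 0.42) on LFD in Short light, and at 19.96 h (SE 0.51) on HFD and 20.1 h (SE 0.52) on LFD in Equal light. Clock peaked at 23.9 h on HFD and 1.13 h on LFD in Long light, at 17.3 h on HFD and 18.1 h on LFD in Short light, and at 19.96 h on HFD and 20.7 h on LFD in Equal light, with SEs of 0.58 to 0.71 h. Npas2 peaked at 2.08 h on HFD and 3.0 h on LFD in Long light, at 17.7 h on HFD and 18.5 h on LFD in Short light, and at 21.3 h on HFD and 22.1 h on LFD in Equal light, with SEs of 0.44 to 0.59 h. All 3 genes peaked latest in Long light and earliest in Short light on either diet.

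Npas2 peaked after Arntl in each of the 6 arms, by 1.03 to 1.97 h and by 1.51 h on average (jackknife SE 0.157 over libraries within groups). The mean was 1.54 h without the 6 libraries. Clock peaked 0.26 h after Arntl on average (SE 0.140), and 0.34 h after it (SE 0.139) without the 6 libraries. With all libraries the values ran from -0.32 h to 0.84 h. They were below 0 in both Long light arms, so that the order of Clock and Arntl was not resolved across arms. By group means, Arntl and Npas2 were highest at the same time in Long light (ZT4). They also shared it in Short light, at ZT16 on HFD and ZT20 on LFD. In Equal light Arntl was highest at ZT20 and Npas2 at ZT0. The fitted differences are descriptions of fitted peaks from samples 4 h apart and carry no test.

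**Figure D2:**
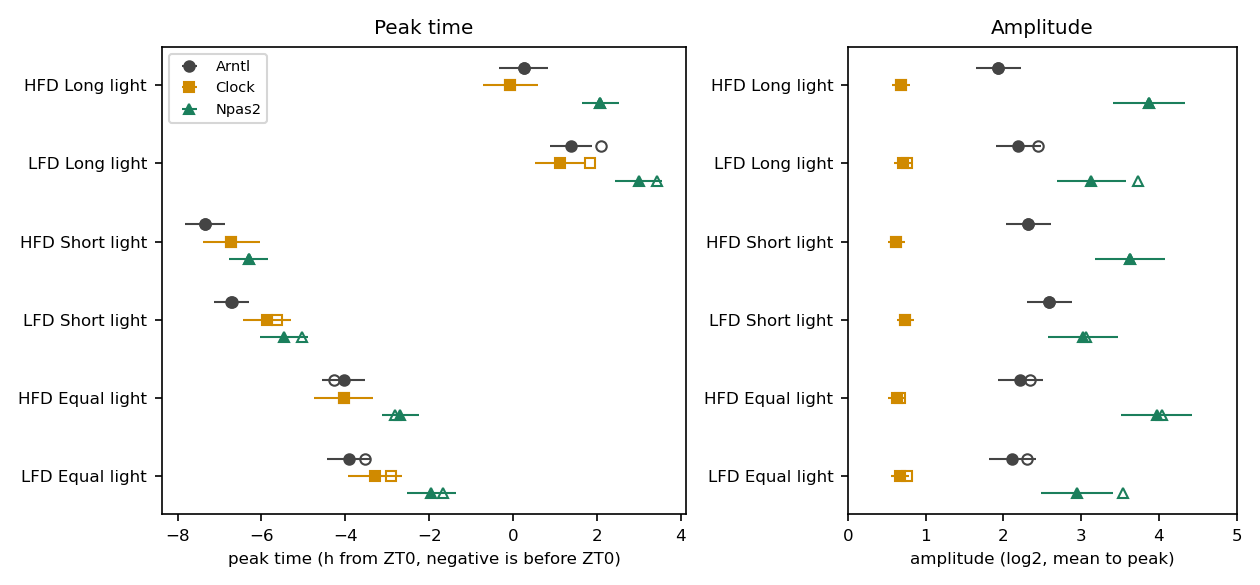
Fitted peak time (left, h from ZT0, with times after ZT12 drawn as negative) and amplitude (right, log2 from mean to peak) of Arntl, Clock and Npas2 in the 6 arms, filled symbols with bars of 1 SE. Open symbols are the same fits without the 6 libraries that stand apart, and Npas2 lies to the right of Arntl in every arm on both scales.

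The comparison of photoperiods asked whether the cycle, counted from ZT0, or the level differs between the labelled light conditions. The labels do not say which event sets ZT0. A moved cycle and a different placing of ZT0 therefore cannot be told apart. Averaged over diets, Arntl peaked 4.80 h later in Long than in Equal light (SE 0.53, adjusted p = 3.10e-13 by limma), Clock 4.20 h later (SE 0.65, adjusted p = 1.21e-08) and Npas2 4.86 h later (SE 0.51, adjusted p = 8.94e-14). This was the rule for rhythmic genes, 97.9% of 826 tested being called later with a median of 4.46 h. In Short light Arntl peaked earlier than in Equal light by 3.05 h (difference -3.05 h, SE 0.48, adjusted p = 9.53e-08), with -2.63 h (SE 0.65, adjusted p = 0.000188) for Clock and -3.56 h (SE 0.52, adjusted p = 1.65e-08) for Npas2. Here 93.7% of 712 genes were called earlier with a median of -3.43 h. Both comparisons share the Equal light libraries.

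Between Long and Short light the peak of Arntl differed by 7.84 h (SE 0.49, 95% interval 6.86 to 8.82 h), that of Clock by 6.82 h (SE 0.63, 5.58 to 8.07 h) and that of Npas2 by 8.42 h (SE 0.51, 7.40 to 9.44 h), where 99.8% of 970 genes were called, with a median of 8.0 h. Nearly all genes tested were called, so a call here says nothing particular to a member. All 9 member differences over diets stayed past the threshold under every alternative run. The same directions were called on each diet alone, with Long later than Equal by 4.29 h on HFD and 5.30 h on LFD for Arntl, 3.97 h on HFD and 4.42 h on LFD for Clock, and 4.77 h on HFD and 4.95 h on LFD for Npas2. The share of genes called there was 83.1% of 1283 on HFD and 87.6% of 1778 on LFD. For Short against Equal light it was -3.30 h on HFD and -2.79 h on LFD for Arntl, -2.68 h on HFD and -2.57 h on LFD for Clock and -3.62 h on HFD and -3.51 h on LFD for Npas2, with 77.7% of genes called on HFD and 59.2% on LFD. The Short against Equal values of Clock lost their call when replicate 1 was left out (HFD, adjusted p = 0.0978) or replicate 2 was left out (LFD, adjusted p = 0.104).

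A test of the whole daily curve, cosine and sine together, differed between photoperiods over both diets for all 3 genes. Between Long and Short light the adjusted p was 1.8e-20 for Arntl, 6.3e-13 for Clock and 1.62e-20 for Npas2, with 52.9% of genes called. Between Long and Equal light, where 23.8% of genes were called, it was 6.42e-10 for Arntl, 5.8e-06 for Clock and 1.37e-10 for Npas2. Between Short and Equal light, where 16.3% were called, it was 2.53e-05 for Arntl, 0.0108 for Clock and 7.25e-06 for Npas2, and the call of Clock was lost when replicate 1 (adjusted p = 0.0989) or replicate 2 (adjusted p = 0.125) was left out. On each diet alone the curves of all 3 genes differed between Long and Short light (28.9% of genes called on HFD and 35.9% on LFD) and between Long and Equal light (7.01% on HFD and 8.05% on LFD). For Short against Equal light (2.58% on HFD and 3.64% on LFD), Arntl and Npas2 were called on each diet, and Clock had adjusted p of 0.224 on HFD and 0.13 on LFD.

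Several of these calls on 1 diet were lost when the libraries of 1 replicate number were left out of every group. Between Long and Equal light, Clock lost its call without replicate 1 or 3 on HFD (adjusted p = 0.195 and 0.285) and on LFD (adjusted p = 0.0837 and 0.0713), and Arntl on HFD without replicate 3 (adjusted p = 0.119). Between Short and Equal light on HFD, Arntl lost its call without replicate 1 or 3 (adjusted p = 0.176 and 0.146) and Npas2 without replicate 1, 2 or 3 (adjusted p = 0.0939, 0.0604 and 0.0767). On LFD both lost it without replicate 1, 2 or 3 (adjusted p = 0.262, 0.151 and 0.176 for Arntl and 0.253, 0.242 and 0.404 for Npas2) and without the 19 libraries rich in pancreas or muscle markers (adjusted p = 0.0976 for Arntl and 0.147 for Npas2). Clock on LFD was called without replicate 4 (adjusted p = 0.0283), without LFD Equal ZT12 replicate 4 alone (adjusted p = 0.0365) and without the 6 libraries (adjusted p = 0.0355, with 10.1% of genes called).

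Neither amplitude nor mean level was called different between photoperiods for any member. The amplitude of Arntl in Long minus Short light was -0.39 log2 (95% interval -0.96 to 0.18), with 0.01 (-0.21 to 0.23) for Clock and 0.17 (-0.72 to 1.07) for Npas2, and 0.0% of 970 genes were called. The mean level over the cycle differed between Long and Short light by 0.30 log2 (-0.08 to 0.68) for Arntl, 0.11 (-0.04 to 0.27) for Clock and 0.13 (-0.51 to 0.77) for Npas2. Among all 14397 genes limma called 0.0% for level between Long and Short light, 402 at an unadjusted p under 0.05, 0.0278% for Long against Equal and 0.00695% for Short against Equal. The intervals were widest for Npas2.

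At single times the same shift appeared as large differences in level. At ZT4 Arntl lay between 5.27 and 5.52 log2 CPM in Long light (median 5.45, 7 libraries) and between -0.23 and 1.65 in Short light (median 0.40, 7 libraries), with no overlap, a difference of 4.88 log2 (SE 0.46, adjusted p = 7.21e-14 by limma). At ZT4 Clock ranged from 5.83 to 6.23 in Long light (median 6.07) and from 4.60 to 4.90 in Short light (median 4.82), a difference of 1.26 log2 (SE 0.19, adjusted p = 3.61e-07). At ZT4 Npas2 ranged from 3.97 to 4.95 in Long light (median 4.61) and from -2.49 to -1.19 in Short light (median -2.28), a difference of 6.5 log2 (SE 0.79, adjusted p = 4.11e-10). The ranges did not overlap for any of the 3 genes. Limma called 17% of genes at ZT4, which is not a share of genes without overlap, and that share is not given here.

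At ZT12 the sign was the opposite. Arntl ranged from 0.87 to 2.22 in Long light (median 1.52, 6 libraries) and from 4.27 to 5.07 in Short light (median 4.88, 7 libraries), a difference of -3.39 log2 (SE 0.48, adjusted p = 6.94e-07). Clock was also lower in Long light, -0.68 log2 (SE 0.20, adjusted p = 0.0168), and so was Npas2, -2.99 log2 (SE 0.81, adjusted p = 0.0102), while 9.59% of genes were called. Clock lost its call without replicate 1, 2 or 3 (adjusted p = 0.15, 0.0857 and 0.0672), and so did Npas2 (adjusted p = 0.0803, 0.194 and 0.0985), which also lost it with limma-voom (adjusted p = 0.202). The Npas2 groups overlapped, since 1 library of LFD Short light stood at -2.99 beside values up to 2.85.

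At ZT16 all 3 were lower in Long light, with differences of -2.74 log2 (adjusted p = 3.51e-05) for Arntl, -0.91 log2 (adjusted p = 0.00083) for Clock and -5.36 log2 (adjusted p = 3.42e-06) for Npas2, with 7.28% of genes called. Clock lost its call there without replicate 1 or 3 (adjusted p = 0.0678 and 0.129). At ZT20 Npas2 alone was called, -3.63 log2 (SE 0.81, adjusted p = 0.000758), while limma called 14.5% of genes. It ranged from -2.36 to 2.16 in Long light and from 2.87 to 4.70 in Short light. The call was lost without replicate 3 (adjusted p = 0.101) and without the libraries rich in pancreas or muscle markers (-3.04 log2, adjusted p = 0.0562), which are 3 of the 6 Long light libraries and 1 of the 7 Short light libraries at ZT20. At that time Arntl differed by -0.39 log2 (95% interval -1.35 to 0.56) and Clock by -0.07 log2 (-0.46 to 0.33). The differences between the genes in this effect were not tested.

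At ZT0 all 3 were higher in Long light, by 1.76 log2 (adjusted p = 0.0181) for Arntl, 0.65 log2 (adjusted p = 0.0337) for Clock and 2.84 log2 (adjusted p = 0.0238) for Npas2, with 4.15% of genes called. Without LFD Short ZT0 replicate 3, which is rich in pancreas markers and has clock targets that stand apart, the values were 0.53 log2 (adjusted p = 0.132) for Clock and 2.20 log2 (adjusted p = 0.121) for Npas2, and the calls were lost. Without all 6 libraries the estimates of Clock and Npas2 were the same and both were called (adjusted p = 0.0375 and 0.0283), as was Arntl with 1.61 log2 (adjusted p = 0.00116), in a chosen subset in which 4.94% of genes were called. Calls at ZT0 also depended on the replicates included. None of the 3 held without replicate 1 or without replicate 3, and Clock also lost its call without replicate 2 or without replicate 4. At ZT8 Arntl (1.70 log2, adjusted p = 0.00285) and Npas2 (3.41 log2, adjusted p = 0.000379) were higher in Long light, with 22.1% of genes called. Arntl lost its call without replicate 3 (adjusted p = 0.0997) and Npas2 with limma-voom (adjusted p = 0.0511). Clock differed by 0.42 log2 at ZT8 (adjusted p = 0.0943), and by 0.58 log2 (adjusted p = 0.013) without LFD Long ZT8 replicate 1. Without all 6 libraries its difference was also 0.58 log2 (adjusted p = 0.00233 by limma, with 22.4% of genes called).

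**Figure D3:**
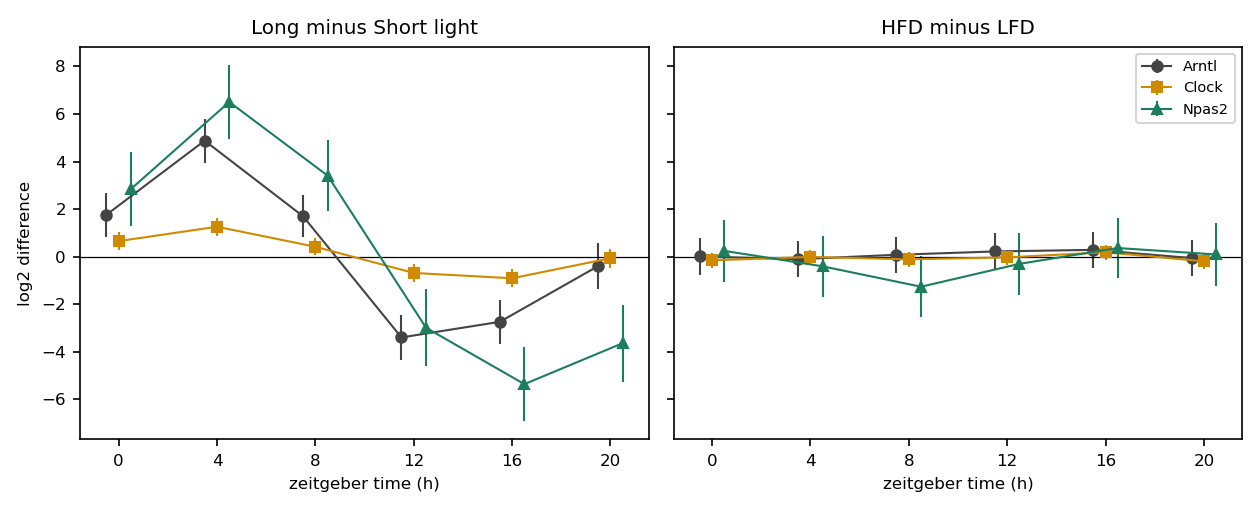
Difference in level (log2, vertical axis) between Long and Short light over both diets (left) and between HFD and LFD over the 3 photoperiods (right) at each zeitgeber time (h, horizontal axis), with bars of the 95% interval. The Long minus Short difference of Npas2 runs from 6.5 at ZT4 to -5.36 at ZT16, whereas no HFD minus LFD difference was called.

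The comparison of diets asked whether HFD changes the level or the timing of the activators. Over photoperiods and times, the level on HFD minus that on LFD was 0.07 log2 (SE 0.16, adjusted p = 0.786) for Arntl, -0.05 (SE 0.06, adjusted p = 0.601) for Clock and -0.21 (SE 0.26, adjusted p = 0.610) for Npas2. None of the 3 was called, in a comparison in which 25.5% of all genes were. The 95% intervals were -0.24 to 0.38 for Arntl, -0.18 to 0.08 for Clock and -0.74 to 0.31 for Npas2. None was called within Long, Short or Equal light either, where 4.86%, 6.88% and 6.85% of genes were, nor for the diet by photoperiod interaction, for which limma called 0.0% of genes and 483 had an unadjusted p under 0.05.

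Over the 18 pairs of groups matched for photoperiod and time, the HFD mean was the higher in 9 pairs for Arntl, 6 for Clock and 8 for Npas2. The libraries of the pair did not overlap in 1 pair for Arntl, 1 for Clock and 2 for Npas2, where 8.62% of the pairs over all genes tested did not overlap. Without the 6 libraries, where 12.3% did not, it was 3 pairs for Arntl, 2 for Clock and 5 for Npas2, with HFD below LFD in 1, 1 and 2 of them. These counts carry no test. At ZT8 in Short light Arntl had 2.33, 2.11, 2.61 and 2.89 log2 CPM on HFD and 0.64, 1.79 and -0.07 on LFD, and Clock had 5.12, 5.10, 5.49 and 5.70 on HFD and 4.96, 5.02 and 4.99 on LFD. In both genes every HFD library stood above every LFD library there.

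In Long light at ZT8 the HFD mean was lower for all 3 genes, by -1.03 log2 for Arntl, -0.51 for Clock and -2.50 for Npas2. There Npas2 had -0.52, 1.25, -1.39 and 0.15 on HFD and -0.66, 3.45, 3.91 and 2.80 on LFD. Apart from LFD replicate 1, which stands apart, every HFD library lay below every LFD library in each of the 3 genes. The HFD mean of Npas2 at ZT8 was also lower in Short light (-0.50 log2) and in Equal light (-0.78 log2), where the libraries overlapped. Pooled over photoperiods, the diet difference at each time was called for no member, with 0.472%, 2.36%, 0.181%, 0.00695%, 2.5% and 0.597% of genes called at ZT0, 4, 8, 12, 16 and 20. At ZT16, for example, it was 0.29 log2 (SE 0.38, adjusted p = 0.791) for Arntl. Without the 6 libraries Arntl at ZT16 was 0.92 log2 higher on HFD (adjusted p = 0.0455), with 2.62% of genes called.

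The difference in peak between diets was below 0 in each of the 3 photoperiods for each gene, and no value passed the test. With a replicate or 1 library left out, the sign changed in Equal light for Arntl (-0.60 to 0.29 h) and Clock (-1.33 to 0.37 h). The median of all genes tested was also below 0, with -0.58 h in Long, -1.15 h in Short and -0.48 h in Equal light. Over photoperiods, HFD minus LFD was -0.63 h (SE 0.41, 95% interval -1.44 to 0.185, adjusted p = 0.352) for Arntl, -0.93 h (SE 0.53, -1.97 to 0.11, adjusted p = 0.286) for Clock and -0.84 h (SE 0.42, -1.67 to -0.00312, adjusted p = 0.233) for Npas2. None passed the threshold, which 3.55% of the 592 genes rhythmic in all arms did, with a median of -0.74 h over the 592. Within photoperiods the values ran from -0.12 h for Arntl in Equal light to -1.19 h for Clock in Long light, none of them called, with 0.0% of genes called in Long light, 0.476% in Short light and 0.0% in Equal light.

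Without the 6 libraries the same difference was -1.07 h (SE 0.34, adjusted p = 0.0183) for Arntl, -1.37 h (SE 0.47, adjusted p = 0.0266) for Clock and -1.27 h (SE 0.32, adjusted p = 0.00386) for Npas2, and all 3 were called. The background moved with them, to 25.4% of 896 genes called and a median of -1.02 h. The 6 libraries are 2 of HFD and 4 of LFD and were picked by clock targets, which cycle with the members, so these p-values describe a chosen subset. Leaving out any 1 of the 6 gave no call, with adjusted p of 0.191 or more for Arntl, 0.155 or more for Clock and 0.103 or more for Npas2. The call was thus gained only when the 6 libraries were left out jointly, among the alternatives run.

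**Figure D4:**
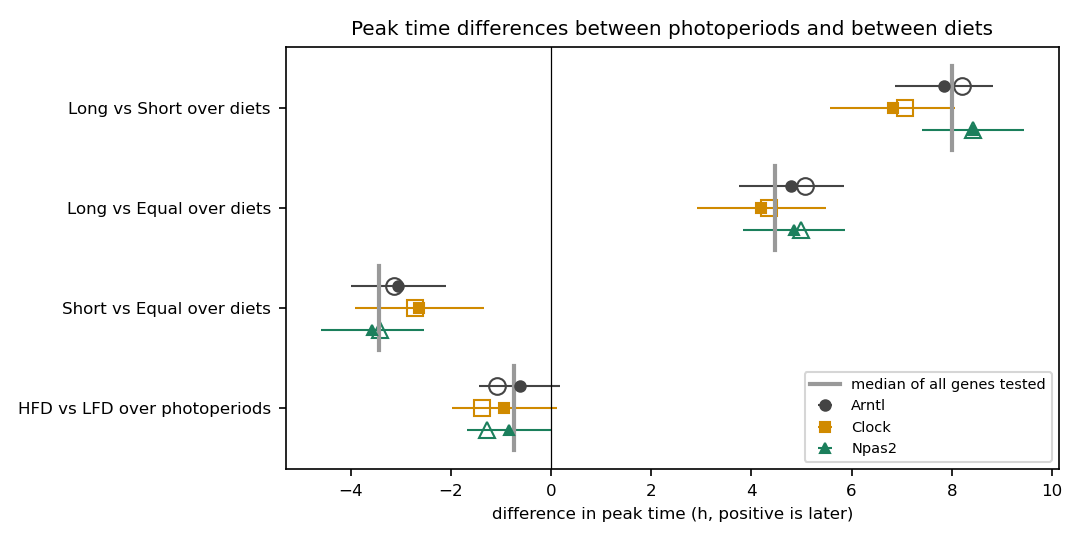
Difference in peak time (h, horizontal axis, positive is later in the group named first) between photoperiods and between diets for Arntl, Clock and Npas2, filled symbols with bars of the 95% interval, and larger open symbols for the fits without the 6 libraries that stand apart. Gray lines mark the median of all genes tested, for example 8.0 h for Long against Short light and -0.74 h for HFD against LFD.

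The amplitude on HFD minus that on LFD was -0.14 log2 (SE 0.24) for Arntl, -0.06 (SE 0.09) for Clock and 0.79 (SE 0.37) for Npas2. The amplitude of Npas2 was 3.87 on HFD and 3.13 on LFD in Long light, 3.63 on HFD and 3.02 on LFD in Short light, and 3.97 on HFD and 2.95 on LFD in Equal light. With an unadjusted p of 0.0365 and an adjusted p of 0.993 the difference did not pass limma's test, which called 0.0% of the 592 genes (Benjamini-Hochberg). It was 0.40 log2 (SE 0.30) without the 6 libraries.

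The genes that the activator pair is known to drive through E-boxes were described as a list of 16. All 16 were in the table, and 13 were rhythmic in all 6 arms, against 4.11% of all genes. Among the 13, all were called later in Long than in Equal light (97.9% of all genes tested), with a median of 4.68 h, and all earlier in Short than in Equal light (93.7%), with a median of -3.82 h. Between Long and Short light, Tef and Dbp, transcription factors of the D-box family, peaked 8.79 h and 8.28 h later in Long light, Ciart, a repressor of the activator pair, 8.53 h, and Usp2, a deubiquitinase, 8.89 h. In Long light Dbp peaked at 12.3 h on HFD and 13.4 h on LFD. For the level between diets, 0 of the 16 were called by limma, where 25.5% of all genes were. Their median difference was -0.02 log2, beside -0.00376 for all genes. For the peak between diets 0 of 13 were called, with a median of -0.81 h, beside 3.55% and a median of -0.74 h for all genes tested.

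Of the regulators that act on the RORE, 4 of 5 were in the table, and Nr1d1 and Nr1d2 stand in the first list as well. Nr1d1 and Nr1d2 were rhythmic in all 6 arms and Rora was in none. Nr1d1, the repressor of Arntl transcription, peaked in Long light at 8.57 h on HFD and 10.4 h on LFD, in Short light at 0.563 h on HFD and 2.04 h on LFD, and in Equal light at 6.92 h on HFD and 6.01 h on LFD. Between Long and Short light the peak of Nr1d2, the second REV-ERB repressor, differed by 8.6 h and that of Nr1d1 by 8.2 h, beside a median of 8.0 h over all genes tested. Of the 4, Rora was called for diet, lower on HFD by 0.18 log2 (difference -0.18, SE 0.05, adjusted p = 0.00786), where 25.5% of all genes were called.

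Of 12 relatives with bHLH-PAS domains, the fold that the 3 activators share, 5 were in the table and 0 were rhythmic in all 6 arms. Ahr, the receptor for dioxin, was higher on HFD (0.38 log2, SE 0.06, adjusted p = 4.48e-07 by limma) and Arnt, its partner, was lower (-0.09 log2, SE 0.03, adjusted p = 0.0225). They were the 2 of the 5 called for diet, where 25.5% of all genes were called. Hif1a and Epas1, the hypoxia factors, differed by -0.08 log2 (adjusted p = 0.0682) and -0.08 log2 (adjusted p = 0.2). Arntl2, the paralog of Arntl, had amplitudes of 0.09 to 0.48 log2 in the 6 arms and was called rhythmic in 2 of them. By arm, 14.1% to 27.1% of all genes were called rhythmic. For the photoperiod level, 0 of the 5 were called, where at most 0.0278% of all genes were.

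Of 19 kinases, ligases and chromatin factors known to act with or on the activator complex, 6 were called for diet, 4 higher and 2 lower on HFD, where 25.5% of genes were. Hdac3, a deacetylase that works with the REV-ERB receptors, was 0.08 log2 higher (SE 0.02, adjusted p = 0.000254) and Btrc, a subunit of the ligase that removes PER proteins, 0.11 log2 higher (SE 0.02, adjusted p = 0.000396). Kdm5a, a histone demethylase, was lower by 0.18 log2 (difference -0.18, adjusted p = 0.00042) and Ube3a, a ubiquitin ligase, by 0.19 log2 (difference -0.19, adjusted p = 0.00259). Cipc, an inhibitor of CLOCK, and Btrc were the 2 that were rhythmic in every arm, against 4.11% of all genes. Cipc peaked 9.67 h later in Long than in Short light (SE 0.80).

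The genes whose group means ran most like those of a member were sought among 9982 genes (9983 for Npas2) whose mean was 2 log2 CPM or more, by Pearson's r over the 36 group means. The group means of any 2 genes come from the same libraries and share the daily cycle, so that r is a description. Nearest to Arntl were Nedd4l, a ubiquitin ligase (r = 0.981), Pnkd (0.977), Caprin1, an RNA-binding protein (0.976), Leo1, a subunit of the PAF1 complex (0.97), and Chka, a choline kinase (0.974). Most opposite were Slc5a6, a vitamin transporter (-0.972), Gpcpd1, a glycerophosphocholine phosphodiesterase (-0.958), and Narf (-0.957). Arntl was the gene most like Clock (0.953), followed by Caprin1 (0.951), Nedd4l (0.947), Clpx, the chaperone of a mitochondrial protease (0.947), and Ddc, a decarboxylase of aromatic amino acids (0.943).

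Most opposite to Clock were the glutamine transporter Slc38a3 (-0.943), Slc5a6 (-0.935) and the fructose transporter Slc2a5 (-0.934). Nearest to Npas2 were Grk5, a receptor kinase (0.969), Loxl4, a lysyl oxidase relative (0.967), Rnf144a, a ubiquitin ligase (0.955), Asap2 (0.949) and Mad2l2, a subunit of a DNA polymerase (0.946). Most opposite to it were Tef (-0.962), Upp2, a uridine phosphorylase (-0.955), and Etnk2, an ethanolamine kinase (-0.954). Between the members, r was 0.953 for Arntl and Clock, 0.857 for Arntl and Npas2 and 0.849 for Clock and Npas2. Without the 6 libraries r was 0.955 for Arntl and Clock, 0.864 for Arntl and Npas2 and 0.8635 for Clock and Npas2.

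In 78 libraries (63.4% of all) Arntl and Clock lay on the same side of the mean of their group, in 85 (69.1%) Arntl and Npas2 did, and in 74 (60.2%) Clock and Npas2 did. All 3 lay on the same side in 57 libraries (46.3%). Without the 6 libraries the share for all 3 was 43.6%. These counts are a description with no test. The share for other genes is not given here, so they do not show whether the members moved together more than other genes.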

How the data were processed

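The authors deposited 1 table of log2 CPM values for 15398 genes in 61 HFD and 62 LFD libraries. The submitters' processing notes name the aligner STAR, the counter featureCounts of Subread 1.6.2 and the build mm10 (GRCm38). Options, annotation and normalization are not given in the sources used here. Per the labels' protocols, stranded libraries were made from poly-A RNA. The values fit a prior of 2 reads, and the recovered reads were whole within 0.05 read for 99.43% to 99.73% of values in a library. Recovered depth was 13.97 M to 39.09 M reads.

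The 14397 genes that reached 1 CPM in 3 or more libraries were tested. Limma 3.58.1 in R 4.3.3, with its variance trend, was fitted over all libraries, with 1 mean per group for levels and a 24 h cosine and sine per arm for rhythms. The Benjamini-Hochberg adjustment ran over every gene tested, with calls at 0.05. Differences of peak and amplitude took their SE from the delta method, over genes rhythmic in each arm that entered. Replicates are numbered in accession order, as names only. The closest of 153 replicate pairs had a chi-square of 14.3 per degree of freedom, so no pair matched within counting noise, which does not show that the libraries come from separate animals. Scripts were tested on simulated data. Exon lengths came from GENCODE on GRCm38.

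The 3 members and the lists were chosen with earlier results of these data known. Named genes are the members, the 5 genes most like and 3 most opposite to each, and up to 4 genes of a list with the smallest p in a comparison. Peaks and amplitudes of Dbp, Nr1d1 and Arntl2 by arm were picked after their values were seen. The values of 1 listed gene are not reported here. Alternatives changed the filter, the variance model, the test (limma-voom on recovered reads), the prior, the centring of libraries, the library number as covariate, the harmonics, and the libraries or replicates included.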

Additional observations from a re-analysis of the deposited data

Results flagged for a closer look

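Groups of 4 libraries were searched for a library that stands far from the rest of its group, by the gap to its nearest neighbour as a share of the range. The search covered 45 combinations of gene and group and found 5 such values, and chance alone gives about 1 in 20.

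Of these, 2 values belong to libraries whose clock targets also stand apart. Npas2 had 4.39 log2 CPM in LFD Equal ZT12 replicate 4, where the other libraries ranged from -2.97 to -2.34, and 3.29 in LFD Long ZT16 replicate 2, where the others ranged from -2.70 to -1.70. In LFD Short ZT16 replicate 4, Npas2 had -2.06 where the others ranged from 3.88 to 4.12, and Arntl had 3.72 where the others ranged from 5.25 to 5.46. That library was not among the 6 whose targets stand apart. In HFD Long ZT8 replicate 2, Arntl had 3.74 where the others ranged from 2.38 to 2.59.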

How the results depend on the processing

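Over 200 results and 19 alternative settings, 3740 values were computed. Of these, 3681 kept their side of the threshold, 48 lost a call (40 with a replicate or 1 library left out), 10 gained one and 1 moved. No called value reversed, and 132 uncalled values changed sign. The alternatives without the 6 libraries that stand apart, together or singly, were chosen after seeing the data. With the 6 left out, HFD minus LFD in peak time was -1.07 h for Arntl, -1.37 h for Clock and -1.27 h for Npas2, each newly called. With a replicate or 1 library left out, the F of the rhythm difference between Short and Equal light of Clock ran from 4.13 to 10.1 (adjusted p 0.0022 to 0.125). The call was lost without replicate 1 or 2. With limma-voom, Npas2 peaked 1.68 h after Arntl. Without libraries rich in pancreas or muscle markers, the Long against Short calls at ZT0 were lost for Arntl and Npas2 (adjusted p = 0.146 each) and Clock (adjusted p = 0.328). Calls lost at other times or on 1 diet stand beside their results. The cause was not tested. No paired analysis was possible because the labels give each library its own number and no number is shared between groups. Low read numbers limit the troughs of Npas2, and samples 4 h apart limit the peak times.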
